A study of Solanum lycopersicum with 6 samples.

Results

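The florigen and antiflorigen genes of tomato were followed by RNA sequencing in axillary buds, which sit in the angle between leaf and stem and grow into side shoots. The members were taken by locus identifier: 6 genes of the SELF-PRUNING family and the bZIP gene SSP (Solyc02g083520). The family genes are SP (Solyc06g074350), SP9D (Solyc09g009560), SP2G (Solyc02g079290), SFT (Solyc03g063100), SP5G (Solyc05g053850) and SP6A (Solyc05g055660). All 7 have a row among the 25440 loci of the expression table. The cultivars, labelled monomaker and compound raceme and both grown in a greenhouse, have 3 libraries each. No allele, treatment or age is stated. Whether the 3 libraries are separate plants is not stated either, so the p-values cover only the spread among libraries, which may be technical.

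Florigen and antiflorigen are small, closely related proteins that act in opposite directions on the switch from leaf-making to flower-making meristems. SFT, the tomato florigen, is the counterpart of FLOWERING LOCUS T of Arabidopsis and is known to be made in leaves and to move to shoot tips. SP, the counterpart of TERMINAL FLOWER 1 of Arabidopsis, keeps shoot tips growing. Loss of SP gives the determinate habit of many field tomatoes. Both proteins are known to bind 14-3-3 adaptors and bZIP factors, of which SSP is a tomato example.

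Values are FPKM, that is, fragments divided by transcript length and by the size of the library. Levels can therefore be set side by side between genes. A locus was tested between the cultivars where its mean was at least 1 FPKM. SP, SP9D, SP2G and SSP passed this limit, and SFT, SP5G and SP6A did not. Folds are compound raceme relative to monomaker on the log2(FPKM + 1) scale, which understates changes of low genes. In a bulk bud sample, fewer cells of a type and less RNA per cell cannot be told apart.

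The library sums ran from 674654 to 750250 FPKM. Read counts are not given. In rows below 0.6 FPKM, values of at least 0.15 FPKM were set against compound raceme 1 where the log2 ratio was within 0.3. The median log2 ratio was between -0.051 and 0. Since only ratios within 0.3 were kept, a median near 0 was fixed in advance and says nothing about depth. Of the bud markers with a RefSeq name, BRC1B, whose TCP factor holds buds back from growing out, had 43.39 to 55.67 FPKM in compound raceme and 11.47 to 32.18 FPKM in monomaker, without overlap (log2 fold change 1.19, limma adjusted p = 0.113). Its relative BRC1A had 2.43 to 5.87 FPKM and LS, a gene needed to form axillary meristems, 0.35 to 1.23 FPKM. Bud marker transcripts were thus present in every library, and their sum was lowest, at 14.35 FPKM, in monomaker 3.

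Among the tested members SP varied most, and it did so within both cultivars. It had 0.72, 13.16 and 15.63 FPKM in compound raceme 1 to 3 and 25.2, 4.5 and 10.35 FPKM in monomaker 1 to 3. The lowest of the 6 values was in compound raceme 1 and the highest in monomaker 1, so the cultivars overlapped. Among the other 4 libraries, both of compound raceme lay above both of monomaker. The highest compound raceme library exceeded compound raceme 1 by 21.7-fold, and monomaker 1 exceeded monomaker 2 by 5.60-fold.

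Mean SP was 9.84 ± 7.99 FPKM over the compound raceme libraries and 13.3 ± 10.7 FPKM over those of monomaker (SD, n = 3 each). Its log2 fold change was -0.67 (SE 0.96, 95% interval -2.94 to 1.60, limma adjusted p = 0.686), so a difference of several-fold in either direction lies inside the interval. Without compound raceme 1 the fold turned to 0.38 (adjusted p = 0.742), and without both libraries numbered 1 it was 0.96 (adjusted p = 0.164). The direction of SP between the cultivars thus rested on 1 library. In the authors' deposited table the log2 ratio of SP is -0.298 with a q-value of 0.907.

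**Figure D1:**
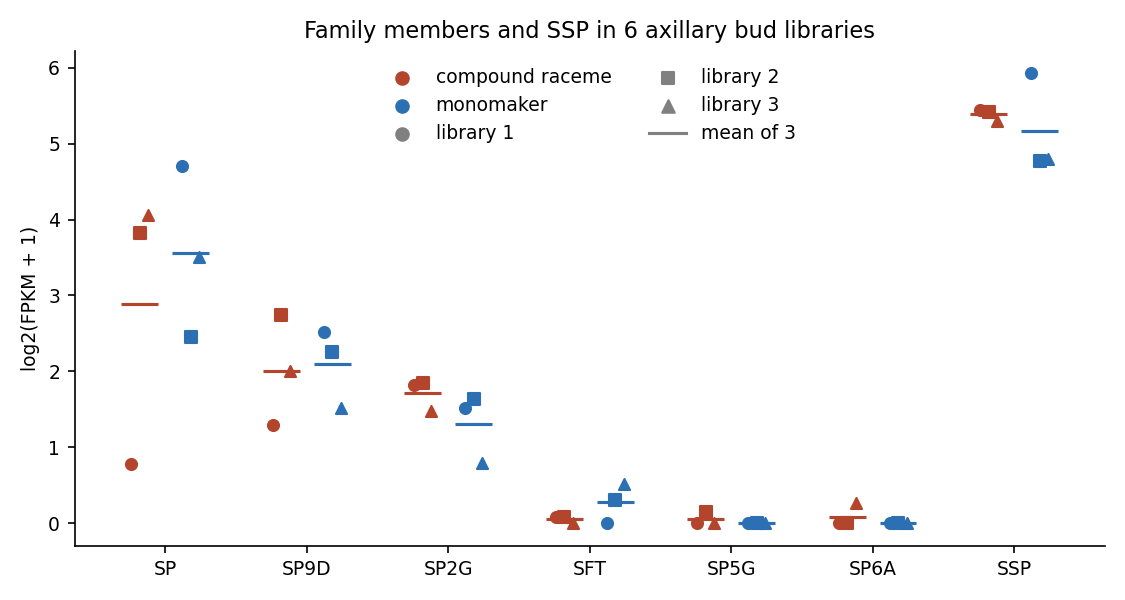
Level of each member as log2(FPKM + 1), with 1 point for each of the 3 libraries of compound raceme (red) and monomaker (blue) and a line at their mean. SP runs from 0.72 to 25.2 FPKM with both extremes in libraries numbered 1, SSP lies above SP in every library, and SFT, SP5G and SP6A lie at or near 0.

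The spread of SP was set beside that of other loci. Pooled over the cultivars, its SD among libraries of the same cultivar was 1.52 in log2 units, and 104 of the 18802 tested loci (0.553%) had a larger one. Among 4150 loci with a mean level within 0.5 of that of SP on the log2 scale, the median SD was 0.252, and 0.482% exceeded SP. SP9D, with an SD of 0.632, was exceeded by 10.2% of the tested loci, SSP, with 0.470, by 19.1%, and SP2G, with 0.355, by 31.5%. The large spread within a cultivar was therefore a feature of SP and less so of the other 3 tested members.

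**Figure D2:**
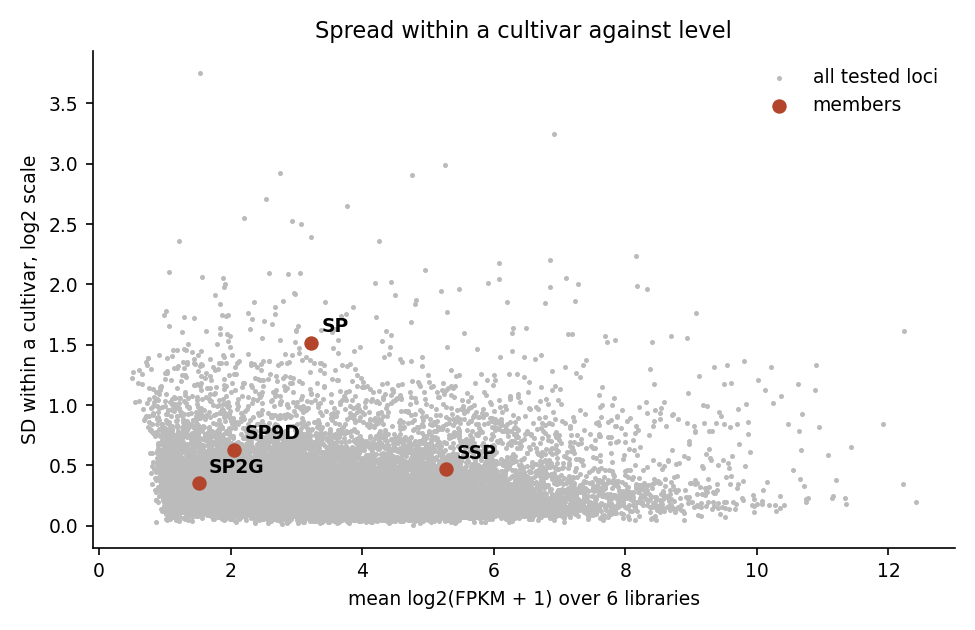
SD within a cultivar on the log2 scale (vertical) against the mean log2(FPKM + 1) over 6 libraries (horizontal) for all 18802 tested loci in grey, with the 4 tested members in red. SP, at an SD of 1.52, stands above nearly all loci of its level, and SP2G, SP9D and SSP lie within the bulk.

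Compound raceme 1 was the lowest library and monomaker 1 the highest for SP, a pattern shared by 275 of the 18802 tested loci (1.46%). Likeness to SP was measured as the root mean square distance of log2(FPKM + 1), centred on the mean of each locus, over the 6 libraries. The nearest locus was Solyc04g077210, at a distance of 0.462. Its values were 0.08, 10.78 and 9.81 FPKM in compound raceme 1 to 3 and 17.71, 6.19 and 4.17 FPKM in monomaker 1 to 3. Next was Solyc02g081120, at 0.546, with 2.08, 17.62 and 18.86 FPKM in compound raceme 1 to 3 and 16.54, 8.03 and 7.13 FPKM in monomaker 1 to 3. Both are low in compound raceme 1, as SP is, which follows from their being picked by distance to SP. Neither is on the gene lists used here, and their names were not looked up. Among the members and pathway genes, FA, the tomato LEAFY gene, ranked 86 of 18801 (distance 0.987) and SP9D ranked 129 (distance 1.02). Few loci vary as widely as SP, and from the side of SP9D the same distance placed SP at rank 17425.

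**Figure D3:**
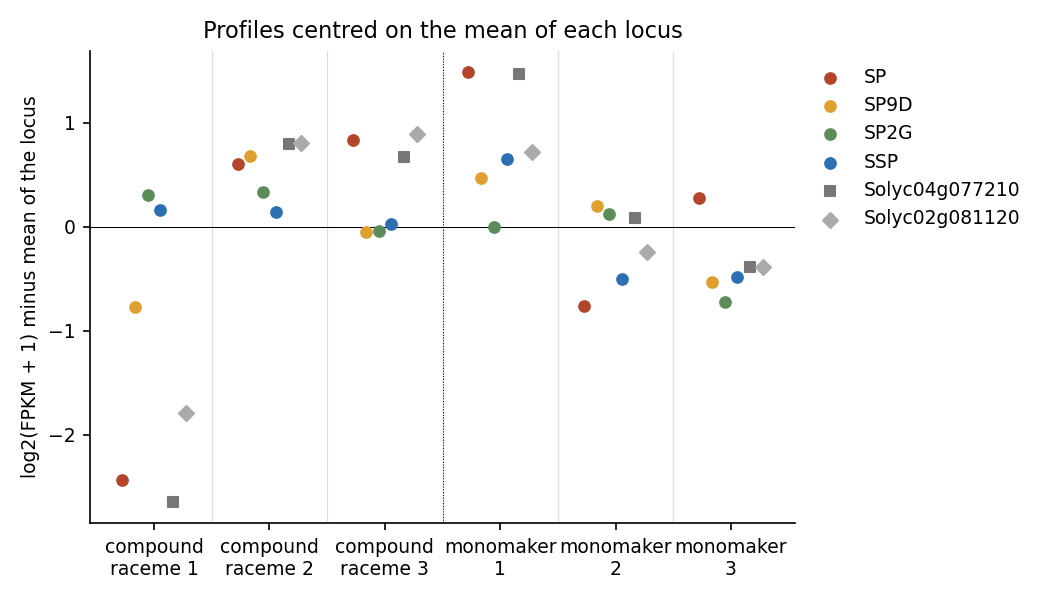
log2(FPKM + 1) minus the mean of the locus (vertical) in each of the 6 libraries (horizontal) for the 4 tested members (circles) and the 2 loci nearest to SP (grey square and diamond). SP and its 2 nearest loci lie furthest below their means in compound raceme 1, SP9D is also lowest there, and SP2G and SSP lie slightly above their means.

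SP9D is a relative of SP in the same antiflorigen branch of the family. It had 1.44, 5.68 and 3.02 FPKM in compound raceme 1 to 3 and 4.75, 3.79 and 1.87 FPKM in monomaker 1 to 3. Compound raceme 1 was again the lowest library, compound raceme 2 was the highest, and the cultivars overlapped. Compound raceme averaged 3.38 ± 2.14 FPKM and monomaker 3.47 ± 1.47 FPKM (SD, n = 3 each), a log2 fold change of -0.09 (SE 0.42, 95% interval -1.09 to 0.91, limma adjusted p = 0.909). The fold was 0.27 without compound raceme 1 and 0.12 without monomaker 1.

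SP9D is the member with 2 rows in the table. One row carries coordinates on chromosome 9 of SL3.0, 2968678 to 2971759 on the plus strand, and had 0.2 to 0.88 FPKM. The other row had 1.24 to 4.8 FPKM, and the authors' deposited table gives the rows q-values of 0.944 and 1.

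SP2G, which RefSeq also lists under the names MFT and SP2I, was the steadiest of the 3 tested family genes in compound raceme. MFT genes form a branch of the family that in Arabidopsis is known for a role in seed germination. SP2G had 2.52, 2.61 and 1.78 FPKM in compound raceme 1 to 3 and 1.85, 2.11 and 0.73 FPKM in monomaker 1 to 3. Monomaker 3 was the lowest library, as it was for the bud marker sum, and the cultivars overlapped. The part of bud tissue in these values was not tested. Means were 2.30 ± 0.455 and 1.56 ± 0.733 FPKM (SD, n = 3 each), with a log2 fold change of 0.40 (SE 0.28, 95% interval -0.26 to 1.07, limma adjusted p = 0.394). Without monomaker 3 the fold was 0.14 (adjusted p = 0.742). The locus nearest to SP2G over the 6 libraries was Solyc12g014355 (distance 0.0815), followed by Solyc02g078650 (distance 0.105).

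SFT transcripts were scarce in these buds. Its values were 0.06, 0.06 and 0 FPKM in compound raceme 1 to 3 and 0, 0.24 and 0.43 FPKM in monomaker 1 to 3. The highest values were in monomaker 2 and 3, and the cultivars overlapped because monomaker 1 was listed at 0. The values above 0 were 1, 1, 4 and 7.17 times the smallest. They may stand for very few fragments each, but these multiples cannot show it. Values rounded to 2 decimals are too coarse at this level, and the depth of the libraries is unknown. An exact two-sided permutation test gave p = 0.400, where 0.1 is the smallest p that 3 against 3 libraries allow. With all loci tested, without a minimum level, the log2 fold change was -0.22 (95% interval -0.54 to 0.10, limma adjusted p = 0.377). It was -0.36 without monomaker 1, -0.10 without monomaker 3 and -0.94 with a pseudocount of 0.1, and the authors' deposited table gives a log2 ratio of -0.894 with a q-value of 0.616.

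The libraries with the highest SFT values were also those with the most leaf transcripts. The summed level of 4 leaf markers (RBCS1, RBCS2A, RBCS3B and CAB12) was 13096 FPKM in monomaker 2 and 18201 FPKM in monomaker 3. In compound raceme it ran from 1284 to 3595 FPKM, and monomaker 1 had 2867 FPKM. All 4 markers were above 0 in every library. The part of leaf tissue in the SFT values was not tested. SUT1, a sucrose transporter of the phloem, where florigen is known to be loaded, had 21.24 to 58.8 FPKM, highest in compound raceme 3 and lowest in monomaker 1.

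SP5G, an FT-like gene known to repress flowering in tomato, was listed at 0.11 FPKM in compound raceme 2 and at 0 in the other 5 libraries. SP6A, whose potato counterpart is known as a signal for tuber formation, was listed at 0.2 FPKM in compound raceme 3 and at 0 in the other 5 libraries. No fold is given for either, since monomaker was listed at 0 throughout. The exact two-sided permutation p was 1 for each. The 3 genes of the florigen branch of the family (SFT, SP5G and SP6A) together thus had at most 0.43 FPKM in any library, while SP and SP9D were detected in all 6.

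The make-up of the family signal followed SP. The 6 family loci summed to 4.74, 21.62 and 20.63 FPKM in compound raceme 1 to 3 and to 31.8, 10.64 and 13.38 FPKM in monomaker 1 to 3. SP made up 15.2% of this sum in compound raceme 1, 42.3% in monomaker 2 and 60.9% to 79.2% in the other 4 libraries. In compound raceme 1 the largest share, 53.2%, was SP2G. SFT made up at most 3.21%, in monomaker 3.

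**Figure D4:**
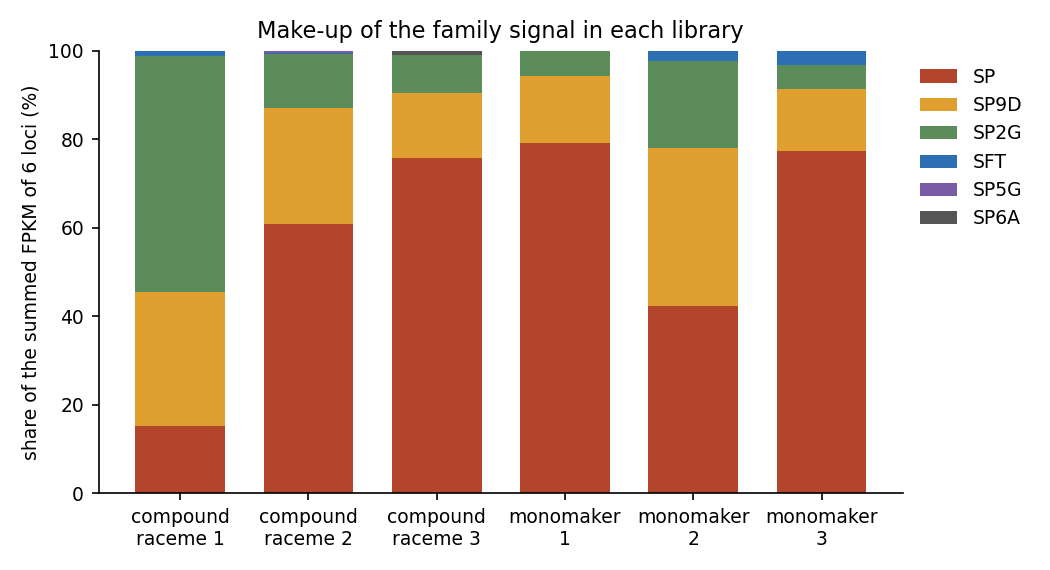
Share of each of the 6 family loci in their summed FPKM (vertical, %) for each library (horizontal), as stacked bars. SP is the largest share in 5 libraries, with 42.3% to 79.2%, and falls to 15.2% in compound raceme 1, where SP2G makes up 53.2%.

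SSP was the most abundant member. RefSeq has no gene called SSP, but lists SPGB, a bZIP gene named for its binding to SP, near the place of this locus on chromosome 2. Whether SSP and SPGB are the same gene could not be checked. SSP had 42.46, 41.7 and 38.43 FPKM in compound raceme 1 to 3 and 59.88, 26.37 and 26.76 FPKM in monomaker 1 to 3. The compound raceme libraries lay close together, between monomaker 1 above and monomaker 2 and 3 below. Compound raceme 1, where SP was at 0.72 FPKM, had 42.46 FPKM of SSP, close to its other 2 libraries.

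SSP averaged 40.9 ± 2.14 FPKM over the compound raceme libraries and 37.7 ± 19.2 FPKM over those of monomaker (SD, n = 3 each), a log2 fold change of 0.22 (SE 0.32, 95% interval -0.53 to 0.97, limma adjusted p = 0.687). Without monomaker 1 the fold was 0.60 and passed the test (adjusted p = 0.0442), and without both libraries numbered 1 it was 0.57 and did not (adjusted p = 0.0767). Without monomaker 2 it was 0.02. A call on SSP thus depended on monomaker 1. Monomaker 2 and 3, where SSP was lowest, had the most leaf marker transcripts, 13096 and 18201 FPKM in sum against 1284 to 3595 FPKM in the other 4 libraries, and the part of leaf tissue in the SSP values was not tested. Over the 6 libraries the nearest loci to SSP were Solyc03g025170, at a distance of 0.0346, and Solyc10g005500, at 0.0572.

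By mean FPKM over the 6 libraries the order of levels was SSP, SP, SP9D and SP2G, followed by SFT, SP6A and SP5G. The order of the last 3 lies near 0, since SP6A and SP5G were each listed at 0 in 5 libraries. SFT lay below SP6A in compound raceme 3 (0 against 0.2 FPKM) and below SP5G in compound raceme 2 (0.06 against 0.11 FPKM). SSP exceeded SP in 6 of 6 libraries, by 2.38-fold to 59.0-fold with a median of 2.88-fold. SP exceeded SP9D in 5 of 6 libraries (median 3.75-fold) and SP9D exceeded SP2G in 5 of 6 (median 1.99-fold), with compound raceme 1 the exception both times. An exact two-sided sign-flip permutation test over the 6 libraries gave p = 0.0312 for SSP over SP, the smallest it can give, and p = 0.0938 for each of the other two. Adjusted over the 3 comparisons by the method of Benjamini and Hochberg, every p was 0.0938, so none passed 0.05 after adjustment, although SSP over SP could not have reached a smaller p in this design. The 3 pairs are neighbours in an order read from these same 6 libraries, with the libraries of both cultivars pooled. The permutation tests ask only whether the mean log2 ratio of a pair differs from 0, and they cannot test the order itself. They do not measure how steady a step was. SSP over SP had the smallest p but the widest range of ratios, from 2.38-fold to 59.0-fold. The lower neighbours were not tested. SP2G, at 0.73 to 2.61 FPKM, lay above SFT, at 0 to 0.43 FPKM, in every library.

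Between the cultivars, 0 of the 4 tested members were called by limma at an adjusted p below 0.05. An unadjusted limma p below 0.05 was found for 0 of the 4, against 4835 of all 18802 tested loci. Over all 18802 tested loci 3.27% were called, 0.75% higher and 2.52% lower in compound raceme, so 0 of 4 is near the background. The cultivars had values that did not overlap at 31.7% of the tested loci and at 0 of these 4. The median log2 fold change was 0.07 over the 4 members and 0.04 over all tested loci. These tests leave room for sizeable differences, since the narrowest 95% interval of the 4, that of SP2G, is 1.33 wide on the log2 scale.

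Genes that act with or beside the family were read from lists kept to names that RefSeq places at the locus. Of 8 genes for 14-3-3 proteins, the adaptors that join florigen to bZIP factors in rice, all 8 were tested. The adjusted test was passed by 3.27% of all tested loci and by 0 of these 8. Of all 18802 tested loci, 4835 had an unadjusted limma p below 0.05, as did 3 of these 8 genes. The cultivars did not overlap at 4 of them (TFT4, TFT6, TFT7 and TFT8), against 31.7% of all tested loci, and the median log2 fold change of the list was -0.10. TFT9, TFT1 and TFT3 were the most abundant, with means over the 6 libraries of 276.9, 209.3 and 107.9 FPKM.

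TFT7 had the largest fold of this list. It had 71.79, 58.27 and 41.24 FPKM in compound raceme 1 to 3 and 88.35, 137.2 and 125.6 FPKM in monomaker 1 to 3. Every monomaker library lay above every compound raceme library, with a log2 fold change of -1.03 (SE 0.26, limma adjusted p = 0.0796). Without monomaker 1 TFT7 fell by 1.22 on the log2 scale and passed the test (adjusted p = 0.0374). It also passed without both libraries numbered 1 (adjusted p = 0.0311). TFT7 was highest in monomaker 2 and 3, which also had the most leaf marker transcripts (13096 and 18201 FPKM in sum, against 2867 FPKM in monomaker 1), and their part in this result was not tested. TFT8 and TFT6 had log2 fold changes of -0.63 (adjusted p = 0.144) and -0.46 (adjusted p = 0.107).

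Among light and photoperiod genes, which act upstream of florigen genes, 0 of 7 were called, against 3.27% of all tested loci. Of the 7, 5 had a fold above 0, as did 10133 of the 18802 tested loci. The median log2 fold change of the list was 0.22, against 0.04 over all tested loci. COL1, listed in RefSeq as CO1 and related to the photoperiod gene CONSTANS of Arabidopsis, had 22.1, 27.14 and 21.19 FPKM in compound raceme 1 to 3 and 5.56, 17.07 and 11.6 FPKM in monomaker 1 to 3. The cultivars did not overlap, and the log2 fold change was 1.09 (SE 0.36, limma adjusted p = 0.127). HY5, a bZIP factor of light response, had 21.21 FPKM in compound raceme 3 and 5.23 to 6.30 FPKM in the other 5 libraries (log2 fold change 0.46, adjusted p = 0.565). The red light receptor gene PHYB1 had a fold of -0.42 on the log2 scale (adjusted p = 0.182). The photoreceptor genes CRY1, PHYA and CRY2, the most abundant of this list, had log2 fold changes of 0.22, -0.05 and 0.38 (adjusted p of 0.366, 0.850 and 0.187).

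Of the meristem genes, FA and AN were tested and 0 of 2 were called, against 3.27% of all tested loci. FA, the tomato LEAFY gene, had 0.67, 1.46 and 1.22 FPKM in compound raceme 1 to 3 and 3.07, 1.23 and 1.77 FPKM in monomaker 1 to 3. Like SP, it was lowest in compound raceme 1 and highest in monomaker 1. AN, an F-box gene of floral meristem identity, ran from 0.05 to 0.14 FPKM over compound raceme libraries and from 0.7 to 3.5 FPKM over monomaker libraries (limma adjusted p = 0.0956). AN passed the minimum mean of 1 FPKM only through monomaker. S, the compound inflorescence homeobox gene, and LS were too low for the test. Both varied within cultivars, and LS went from 0.35 FPKM in compound raceme 1 to 1.23 FPKM in compound raceme 2.

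The 7 MADS-box genes, which act after the florigen switch in flowering meristems, included the 2 calls of these lists. Of 6 tested, 2 fell and 0 rose, against 2.52% and 0.75% of all tested loci, and the median log2 fold change was -0.98. The calls were J2 (log2 fold change -1.83, limma adjusted p = 0.0214) and EJ2 (-1.35, adjusted p = 0.0454), paired genes whose joint loss branches the inflorescence. J2 had 0, 0.17 and 0.34 FPKM in compound raceme 1 to 3 and 3.5, 2.4 and 3.62 FPKM in monomaker 1 to 3. It thus passed the minimum mean of 1 FPKM only through monomaker, and its direction is no separate support. Leaving out any 1 of compound raceme 2, compound raceme 3, monomaker 2 and monomaker 3 ended both calls, and leaving out compound raceme 1 or both libraries numbered 1 ended that of EJ2. EJ2 was also not called with quantile normalization, median scaling, no filter, a minimum of 0.1 FPKM or single rows. With the replicate block neither was called. J, the JOINTLESS gene of the flower stalk, had 26.93 to 35.75 FPKM in the 6 libraries and a log2 fold change of 0.05 (adjusted p = 0.848). FUL1, FUL2 and MBP20, FRUITFULL-class genes, had log2 fold changes of 0.73, -0.93 and -1.03 (adjusted p of 0.197, 0.0846 and 0.0903).

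Floral marker transcripts differed beside these genes. The summed level of 5 floral markers ran from 52.3 to 82.6 FPKM over compound raceme libraries and from 48.1 to 55.2 FPKM over monomaker libraries, most of it TM6. Of the 5, TM5, TM29 and TPI fell, by 2.18, 2.31 and 2.0 on the log2 scale (limma adjusted p of 0.0193, 0.0184 and 0.0193). TM6 and TAG1 were not called (log2 fold changes 0.82 and 0.06). The share of all tested loci called lower was 2.52%. TM5, TM29 and TPI passed the minimum mean only through monomaker, with compound raceme means of 0.0167, 0.253 and 0.22 FPKM. Without compound raceme 2 all 6 called loci were higher in compound raceme, as were all 7 without compound raceme 3. With the replicate block 0 loci were called. The calls on TM5, TM29 and TPI were thus lost in each of these settings. TM5 was listed at 0 in compound raceme 1 and 2. The part of floral tissue in the values of the MADS-box genes was not tested.

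**Figure D5:**
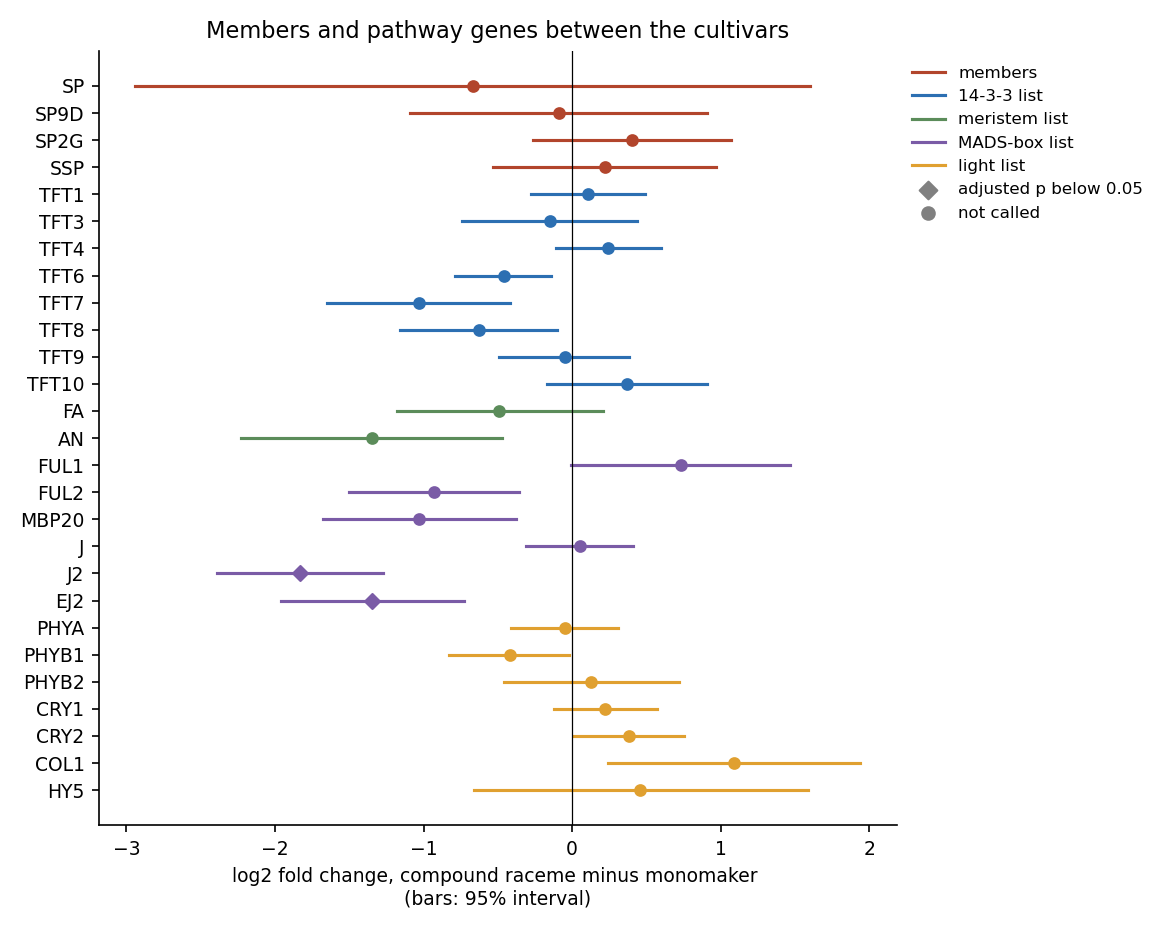
log2 fold change of compound raceme minus monomaker (horizontal, bars are the 95% interval from limma) for the 4 tested members and the tested genes of 4 pathway lists, with diamonds for an adjusted p below 0.05. All 4 members have intervals that span 0, SP has the widest, from -2.94 to 1.60, and J2 and EJ2 are the 2 called genes.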

How the data were processed

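RNA from axillary buds was extracted with Trizol and sequenced from BGI500 libraries, per the labels' protocols. The submitters' processing notes name RSEM 1.2.12, HISAT2 2.0.4, DESeq2 1.4.5 and Bowtie2 2.2.5, without their roles. The authors deposited FPKM values for 6 libraries in 31139 rows, with 2 decimals, per the file headers. The same deposited table holds their log2 ratio, p-value and q-value. Chromosome names are those of SL3.0. The annotation release and strand use are not given in the sources used here.

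FPKM was summed over the rows of a locus (5699 loci have 2). Loci averaging 1 FPKM or more were tested as log2(FPKM + 1) in R 4.3.3 with limma 3.58.1, its variance following an intensity trend and cultivar being the sole term. P-values were adjusted over all 18802 tested loci by the method of Benjamini and Hochberg. Depth per library is unknown, so no counting interval is given.

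The members and lists were chosen with earlier results of these data known. Names were kept where RefSeq (SLM_r2.1) lists the symbol on that chromosome within 0.1 of its genes' order. This tolerance was set after the names that passed and their values had been seen, and it cannot tell close neighbours apart. All 7 members passed (SSP through SPGB), as did 26 of 44 list entries and 13 of 15 markers. Of the other list entries 10 have no symbol, 6 have no row and 2 lay elsewhere. None of the 8 entries for further family loci and a second bZIP gene was kept. That bZIP entry, Solyc02g061990, had itself been listed as SPGB and lay elsewhere. The name SSP thus rests on SPGB being the same gene, which could not be checked. Named are all members, called list genes, the 3 most abundant and the 3 with the largest fold of each list, and the 2 loci most like SP, SP2G and SSP. TFT4, S, LS and the markers are named beyond this rule. Alternatives were another scaling, pseudocount, filter and variance model, single rows, a replicate block and libraries left out. No sequences are shown.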

Additional observations from a re-analysis of the deposited data

How the results depend on the processing

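The folds of SP2G (0.14 to 0.63) and SSP (0.02 to 0.60) kept their direction in all 15 alternatives. Those of SP and SP9D reversed. For SP the fold was 0.38 without compound raceme 1 and 0.96 without both libraries numbered 1, and it ran from -1.26 to 0.38 as single libraries were left out. For SP9D it was 0.27 without compound raceme 1, 0.12 without monomaker 1 and 0.48 without both libraries numbered 1, with a lowest value of -0.45. SSP passed the test without monomaker 1, at 0.60, and in none of the other 14 alternatives. The fold of SFT moved to -0.94 with a pseudocount of 0.1, which by its construction widens folds of low values. SFT was not computed under the other scalings, since it was below the minimum level.

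The count of called loci, 614 in the report's test, was 6 to 2041 with 1 library left out and 1921 without both libraries numbered 1. The MADS-box list had 0 to 2 calls with 1 library left out and 1 call each with quantile normalization, median scaling, a minimum of 0.1 FPKM, single rows and without both libraries numbered 1, that of J2 each time. With no filter its 2 calls were J2 and MBP10. The 14-3-3 list had 0 to 1 calls with 1 library left out and 1 without both libraries numbered 1. The meristem and light lists had 0 calls in each of the 15. The cause of these changes was not tested. Leaving out a library also leaves fewer values.

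Whether a replicate number marks a shared batch is not stated. Deviations from the cultivar means correlated at 0.028, 0.058 and 0.103 for the same-numbered libraries, across loci. For the other pairs they correlated at -0.166 to 0.101. The values are small for both kinds of pair and cannot settle what the numbers mean. With the replicate block 0 loci were called, against 4676 at an unadjusted limma p below 0.05, and 0 in the MADS-box list. The fold of SP stayed -0.67 (adjusted p = 0.716).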
